A study of Mus musculus with 6 samples.

Results

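The genes described here are 28 members of a module of peroxisome biogenesis and peroxisomal lipid oxidation, chosen by gene symbol from the 22851 rows of the deposited liver expression matrix. They comprise 13 peroxins, which build the organelle, and 15 genes of transporters and enzymes that work in it. All 28 symbols were found, and all 28 passed the filter on low values, an FPKM above 1 in at least 3 libraries. FPKM is the number of sequenced fragments per kilobase of transcript, scaled to the size of the library. The livers came from males of the inbred mouse strain C57BL/6J, all fed a high-fat diet (HFD). Mice of the treated group also received ONX-0914, an inhibitor of the immunoproteasome subunit PSMB8, by subcutaneous injection of 10 mg/kg on alternate days over 6 weeks (libraries ONX-0914 1, 3 and 4). The others received vehicle (libraries vehicle 1, 2 and 4). The design text gives 2 animals per group where the labels list 3 libraries, and no label ties a library to an animal, so the p-values speak only of spread among libraries, which may be technical.

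Peroxisomes are single-membrane organelles abundant in hepatocytes. They shorten very-long-chain, branched and dicarboxylic fatty acids by a beta-oxidation that passes electrons to oxygen and makes hydrogen peroxide, and they finish the side chain of bile acids. Their enzymes are made in the cytosol and carried in by receptors that recognise short targeting signals. In rodent liver the nuclear receptor PPARα induces many of these genes, and drugs that activate it make peroxisomes multiply.

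Total read numbers are not given, so the depth is unknown. The deposited values summed to between 1041391 and 1247789 FPKM in the ONX-0914 libraries and between 993263.5 and 1074027 FPKM in the vehicle libraries. ONX-0914 3 stood away from ONX-0914 1 and 4 on the principal component that held 77.3% of the variance, at 10.6 against 73.95 and 67.81 for ONX-0914 1 and 4, while the vehicle libraries lay between -56.07 and -47.2. Long transcripts had lower values than short ones in the treated libraries: the longest 25% differed from the shortest 25%, in the median log2 difference from the vehicle mean, by -0.93, -0.25 and -0.99 in libraries ONX-0914 1, 3 and 4 and by 0.04, -0.01 and -0.03 in libraries vehicle 1, 2 and 4. Hepatocyte markers were abundant in all 6 libraries, with a summed level over 9 markers of 60347 to 94317 FPKM in the ONX-0914 libraries, against 80987 to 87592 FPKM in the vehicle libraries. Of these 9 markers Fgb and Apoa1 rose and Apob, Cps1, Ass1 and Hnf4a fell as deposited, beside 2.56% and 43.5% of all genes tested. After median-ratio scaling 0 were lower and 3 (Apoa1, Serpina1a and Fgb) higher, beside 13.7% and 14.3% of all genes tested. Hnf4a, a hepatocyte transcription factor, had 6.26, 40.7 and 5.94 FPKM in the ONX-0914 libraries, against 58.5, 51.7 and 68.6 FPKM in the vehicle libraries, and it did not pass in scaled values (-1.47 after median-ratio scaling and -1.34 once the length trend was removed, limma adjusted p = 0.0675 and 0.0809). The 6 endothelial markers all fell. Their summed level was 18.0 to 29.4 FPKM in the ONX-0914 libraries, against 105 to 113 FPKM in the vehicle libraries. Also lower were 4 of 6 macrophage and 4 of 5 stellate cell and fibroblast markers, beside the 43.5% of all genes tested. Of 4 cholangiocyte markers 1 fell, and of 6 T and B cell markers 1 was tested and was not called. Of 5 neutrophil markers none was called, with a limma adjusted p of 0.238 or above, and their summed level was 2054.8, 178 and 4380.0 FPKM in ONX-0914 1, 3 and 4, against 324, 292 and 1767 FPKM in vehicle 1, 2 and 4. After median-ratio scaling the 6 endothelial markers stayed lower. Csf1r (macrophage), Dcn and Lrat (stellate cell and fibroblast) and Sox9 (cholangiocyte) were no longer called lower. Spp1, a cholangiocyte marker, was then higher (1.19, limma adjusted p = 0.0291). The part of these differences in the results below was not tested. In bulk tissue fewer cells of a type and less RNA per cell cannot be told apart.

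Peroxisomal genes were mostly lower in the livers of ONX-0914-treated mice. Of the 28 members 18 fell, 0 rose and 10 did not pass the test (limma on log2(FPKM + 1), Benjamini-Hochberg adjusted p under 0.05 over 10743 genes). At an unadjusted p under 0.05, too, 0 members were higher. Over all genes tested 43.5% were called lower and 2.56% higher, so the members' 64.3% stands beside a high background. The members' median log2 fold change was -1.0, beside -0.64 for all genes tested. In 22 of the 28 members every ONX-0914 library was below every vehicle library, beside 53.5% of all genes tested, and in the other 6 the groups overlapped. The largest falls in log2(FPKM + 1) were in the transporter gene Abcd3, the bifunctional enzyme gene Ehhadh, the thiolase gene Acaa1b and the transporter gene Abcd2. Summed over the 28 members, the level was 2084, 3502 and 2452 FPKM in ONX-0914 1, 3 and 4, against 5829, 5542 and 5159.6 FPKM in vehicle 1, 2 and 4. That sum was 0.182, 0.336 and 0.197% of all FPKM in the ONX-0914 libraries, against 0.587, 0.550 and 0.480% in the vehicle libraries, and Scp2 and Cat together made up between 43.6% and 56.5% of it in each library.

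**Figure D1:**
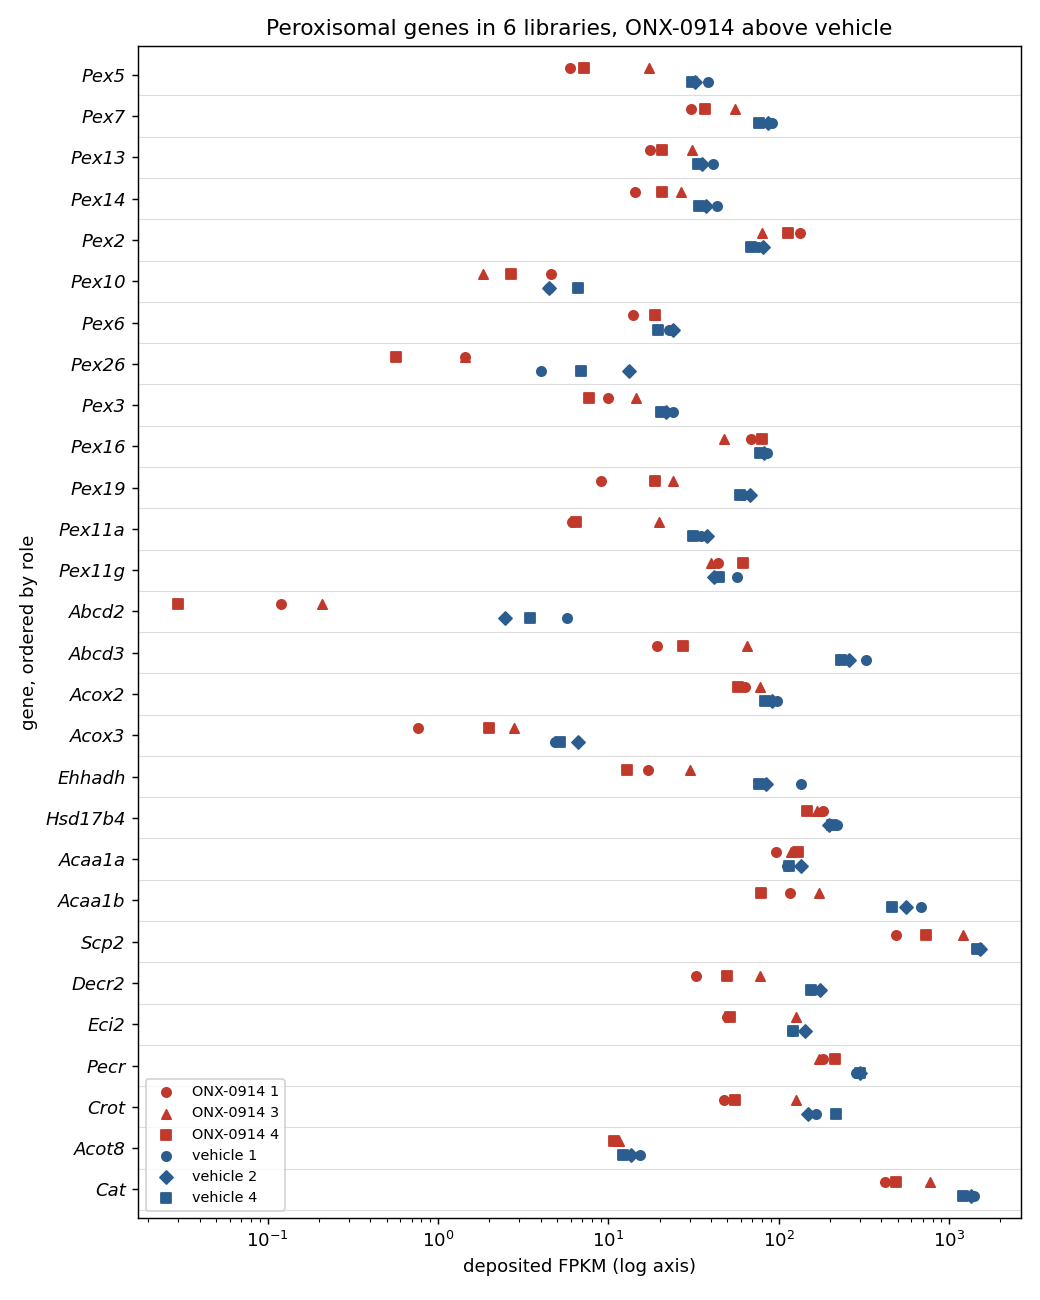
Deposited FPKM (log axis) of the 28 peroxisomal genes, ordered by role, with 3 ONX-0914 libraries (red, upper row of each gene) and 3 vehicle libraries (blue, lower row), each point 1 library. In 22 genes all red points lie left of all blue points, and for Pex2 the red points of ONX-0914 1 and 4 lie right of the blue ones.

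The median gene was lower as well, and the count differed with the scaling. Median-ratio scaling, which divides a library by its median ratio to the geometric mean of all 6, moved the median of all genes tested to 0.0034. Then 9 members fell and 1, Pex2, rose, beside 13.7% and 14.3% of all genes. Removing each library's trend over transcript length also took out its overall shift from the vehicle mean. The median of all genes tested was then 0.023, so this setting does not separate length from that shift. With the length trend removed, 9 fell and 1, again Pex2, rose, beside 11.6% and 9.61% of all genes. The members' median was then -0.21 and -0.43. The same 8 genes fell as deposited and in both of these settings: Pex5, Pex19, Pex11a, Abcd2, Abcd3, Ehhadh, Acaa1b and Decr2. These 8 also fell in each of the other 10 settings tried, among them the omission of each library in turn, and no other member fell in all 12. These settings share libraries and are not independent. The setting with the replicate number as a block compares only ONX-0914 1 and 4 with vehicle 1 and 4. As deposited, the 13 peroxins had 8 falls (61.5%) and a median of -0.90. The 15 transporters and enzymes had 10 falls (66.7%) and a median of -1.27, beside 43.5% and -0.64 over all genes tested. After median-ratio scaling 4 peroxins (30.8%, median -0.11) and 5 of the 15 (33.3%, median -0.46) fell, beside 13.7% of all genes. With the length trend removed 3 peroxins (23.1%, median -0.26) and 6 of the 15 (40%, median -0.50) fell, beside 11.6%. Transcript length was known for all 28 members, with a median of 2662 bases beside 2906 bases over all genes tested, and across the 28 genes, which are not independent replicates, log2 length and log2 fold change had a Pearson correlation of -0.36 (-0.38 across all genes).

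**Figure D2:**
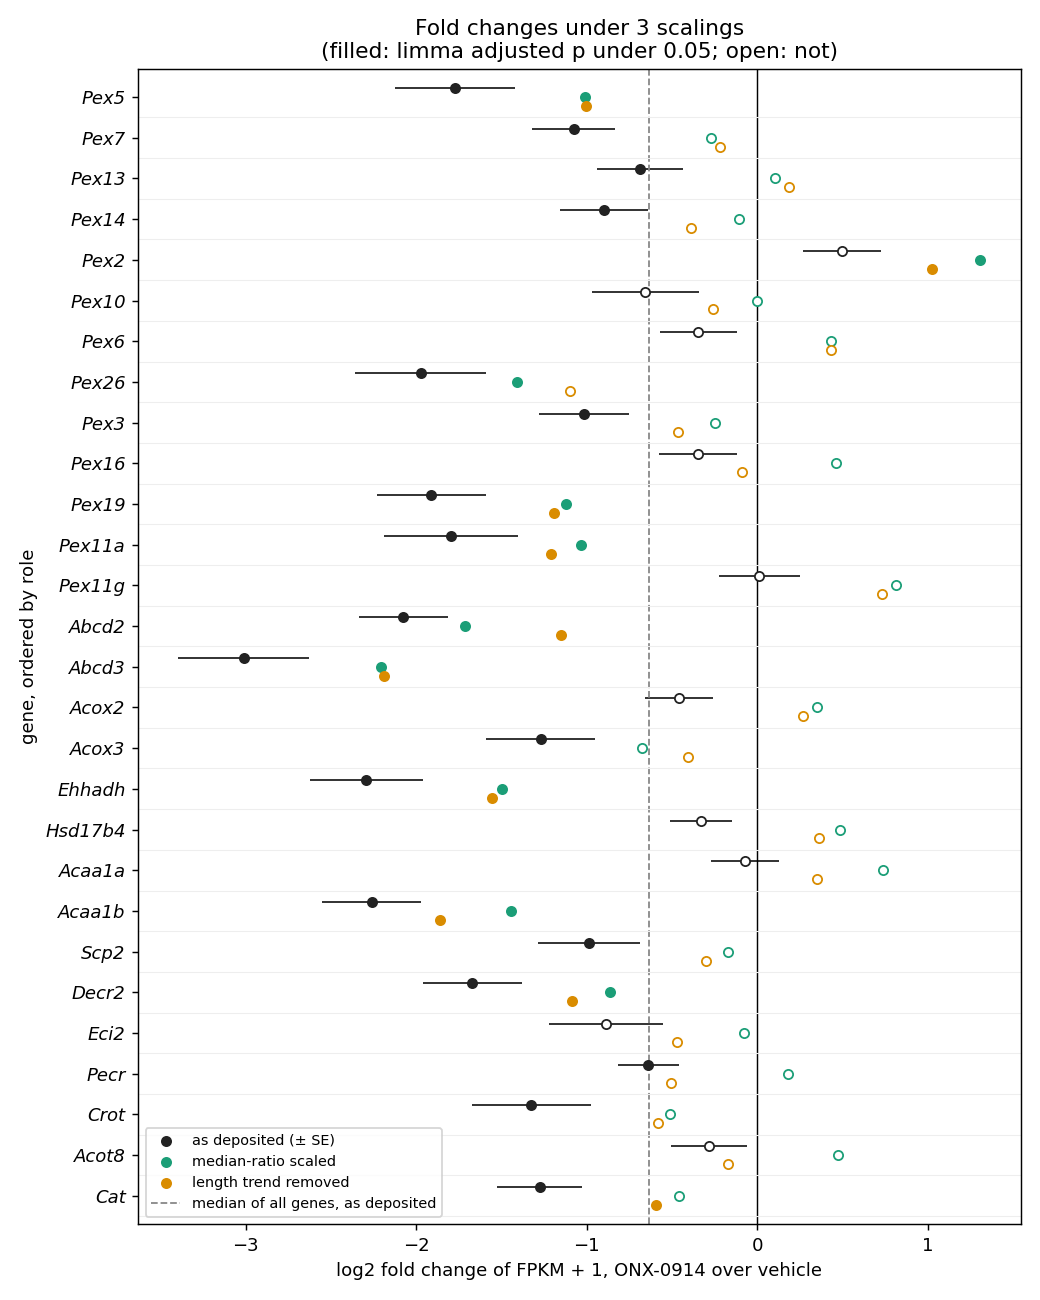
Log2 fold change of FPKM + 1, ONX-0914 over vehicle, for each of the 28 genes as deposited (black, with the standard error, n = 3 per group), after median-ratio scaling (green) and with the length trend removed (orange); filled points passed limma at an adjusted p under 0.05, and the dashed line is the median of all genes as deposited, -0.64. Pex5, Pex19, Pex11a, Abcd2, Abcd3, Ehhadh, Acaa1b and Decr2 are filled on the left in all 3 colours.

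Some related genes serve the same step, and the RefSeq promoter windows of 5 of them (GRCm38.p6, 250 bases before to 50 after the start, 5′ to 3′ on the gene's strand) are shown. The thiolase and the PEX11 pair can be compared, while Ehhadh stands alone because its partner Hsd17b4 is not shown. Capitals mark a GC box (GGGCGG, or CCGCCC on the other strand), the site of SP-family factors, and a CCAAT box (CCAAT, or ATTGG), the site of NF-Y. Acaa1b lies at chr9:119157044-119157343, Acaa1a at chr9:119341044-119341343, Ehhadh at chr16:21787785-21788084, Pex11a at chr7:79743082-79743381 and Pex11g at chr8:3467599-3467898; Acaa1a is on the plus strand and the other 4 on the minus strand.
Acaa1b: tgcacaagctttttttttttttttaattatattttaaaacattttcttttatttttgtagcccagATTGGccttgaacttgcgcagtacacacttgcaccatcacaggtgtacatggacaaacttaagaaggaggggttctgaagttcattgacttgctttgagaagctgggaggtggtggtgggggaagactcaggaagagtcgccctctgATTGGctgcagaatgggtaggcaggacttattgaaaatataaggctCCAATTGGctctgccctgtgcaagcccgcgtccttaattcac
Acaa1a: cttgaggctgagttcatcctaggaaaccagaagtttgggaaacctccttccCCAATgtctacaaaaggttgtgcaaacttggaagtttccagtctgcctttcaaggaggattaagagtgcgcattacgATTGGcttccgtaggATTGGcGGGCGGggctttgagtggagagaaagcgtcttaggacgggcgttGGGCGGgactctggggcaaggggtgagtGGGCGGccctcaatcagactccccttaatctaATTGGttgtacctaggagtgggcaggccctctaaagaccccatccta
Ehhadh: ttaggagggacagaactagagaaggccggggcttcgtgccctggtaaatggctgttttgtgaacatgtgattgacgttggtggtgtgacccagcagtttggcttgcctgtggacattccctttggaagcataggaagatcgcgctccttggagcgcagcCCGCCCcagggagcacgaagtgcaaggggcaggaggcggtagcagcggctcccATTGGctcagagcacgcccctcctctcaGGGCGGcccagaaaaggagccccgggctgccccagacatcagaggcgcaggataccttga
Pex11a: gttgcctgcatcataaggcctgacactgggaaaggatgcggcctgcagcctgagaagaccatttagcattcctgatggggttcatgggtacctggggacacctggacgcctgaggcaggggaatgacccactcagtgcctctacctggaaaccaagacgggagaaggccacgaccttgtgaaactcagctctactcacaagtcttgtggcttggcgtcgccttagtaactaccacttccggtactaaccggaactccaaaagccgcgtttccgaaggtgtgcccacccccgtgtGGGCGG
Pex11g: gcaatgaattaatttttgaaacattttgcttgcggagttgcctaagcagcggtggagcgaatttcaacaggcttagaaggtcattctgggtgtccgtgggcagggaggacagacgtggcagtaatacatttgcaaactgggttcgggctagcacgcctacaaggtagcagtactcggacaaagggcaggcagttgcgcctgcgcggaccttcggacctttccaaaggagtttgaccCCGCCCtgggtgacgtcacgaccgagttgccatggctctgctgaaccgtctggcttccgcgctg
The Acaa1b window held 0 GC boxes and 4 CCAAT boxes (of which a pair, on opposite strands, shares letters) at 43.7% G and C, and the Acaa1a window 3 GC boxes and 4 CCAAT boxes at 53.3%. Pex11a and Pex11g each had 1 GC box and 0 CCAAT boxes. Windows were found for 24 of the 28 members (29 windows), and not for Pex2, Pex19, Abcd2 and Hsd17b4. A GC box stood in 20 of these 29 windows and in 35.7% of all 32851 windows, and a CCAAT box in 13 of the 29 and in 37.4% of all. The 29 windows had a median of 58.0% G and C, beside 52.7% for all windows. The letters AGGNCA repeated in the same direction after 1 base of any kind, a form of the element that PPARα binds with its partner RXR, stood on either strand in 0 of the 29 windows and in 0.381% of all windows. The single element AGGTCA stood in 3 of the 29 and in 16.3% of all windows. These matches describe the letters in the windows only.

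The import receptors fell. Pex5 encodes the receptor that carries proteins ending in the SKL-type signal into the peroxisome, and lies on chromosome 6 from 124396816 to 124415067 of GRCm38. It had 5.97, 17.3 and 7.24 FPKM in ONX-0914 1, 3 and 4, against 38.3, 32.5 and 30.9 FPKM in vehicle 1, 2 and 4 (log2 fold change -1.77 with an SE of 0.35, limma adjusted p = 0.00517). The groups did not overlap, with ONX-0914 3 the highest of the treated libraries, and its values were -1.01 after median-ratio scaling and -1.0 once the length trend was removed. Pex7, the receptor for enzymes with the amino-terminal signal, which include the ACAA1 thiolases, fell too, with 30.8, 55.1 and 36.9 FPKM in the ONX-0914 libraries, against 91.9, 86.3 and 77.0 FPKM in the vehicle libraries (log2 fold change -1.08 with an SE of 0.24, limma adjusted p = 0.00829). Its log2 fold change was -0.27 after median-ratio scaling and -0.22 once the length trend was removed, and it passed in neither. The docking proteins of the membrane, Pex13 and Pex14, fell as deposited. Pex13 had 17.5, 30.9 and 20.6 FPKM in the ONX-0914 libraries, against 41.4, 35.5 and 33.4 FPKM in the vehicle libraries (log2 fold change -0.69 with an SE of 0.25, limma adjusted p = 0.0495). Its direction turned in scaled values, to 0.10 after median-ratio scaling and 0.19 once the length trend was removed. Pex14 had 14.3, 26.7 and 20.8 FPKM in the ONX-0914 libraries, against 43.1, 37.6 and 34.0 FPKM in the vehicle libraries (log2 fold change -0.90 with an SE of 0.26, limma adjusted p = 0.0213). In scaled values it was -0.11 after median-ratio scaling and -0.39 once the length trend was removed. With a library other than ONX-0914 3 left out, between 24.1% and 29.8% of all genes tested were called lower, beside 43.5% with all 6. These shares also stand beside the lost calls of other members below. The calls of Pex13 and Pex14 were both lost in each of those fits. That of Pex13 was lost without ONX-0914 1 or 4 or vehicle 1, 2 or 4 in turn (log2 fold changes -0.75 to -0.52, limma adjusted p = 0.0961 to 0.173). That of Pex14 was lost without ONX-0914 1 or 4 or vehicle 1, 2 or 4 in turn (log2 fold changes -0.98 to -0.67, limma adjusted p = 0.051 to 0.0905). A predicted antisense gene, Gm17029, covers 28.3% of the exon bases of Pex14, and the sources used here do not say whether reads were counted by strand.

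The genes of the machinery that recycles the receptors did not move as one. Pex2 and Pex10 encode RING subunits of the ubiquitin ligase that marks PEX5 for extraction from the membrane. Pex2 had 133, 79.7 and 113 FPKM in ONX-0914 1, 3 and 4, against 75.6, 80.8 and 68.7 FPKM in vehicle 1, 2 and 4. ONX-0914 1 and 4 were above every vehicle library while ONX-0914 3 lay within their range, and the gene did not pass as deposited (log2 fold change 0.50 with an SE of 0.23, limma adjusted p = 0.0984, 95% interval -0.015 to 1.01). It passed as higher after median-ratio scaling (1.31, limma adjusted p = 0.022), with the length trend removed (1.02, limma adjusted p = 0.0288), and without ONX-0914 3 (log2 fold change 0.70, limma adjusted p = 0.0061). Pex10 had 4.62, 1.84 and 2.67 FPKM in the ONX-0914 libraries, against 4.51, 4.46 and 6.62 FPKM in the vehicle libraries. The groups overlapped, and Pex10 was not called (log2 fold change -0.66 with an SE of 0.31, limma adjusted p = 0.111). Of the omissions of a library, it passed as lower only without ONX-0914 1 (log2 fold change -0.92, limma adjusted p = 0.0474), beside 29.8% of all genes tested. Its value was 0.0023 after median-ratio scaling and -0.26 once the length trend was removed, and Pex10 passed in neither. Pex26, the membrane anchor of the ATPases that pull PEX5 out, lies on chromosome 6 from 121183667 to 121198837. It had 1.44, 1.44 and 0.570 FPKM in the ONX-0914 libraries, against 4.05, 13.2 and 6.90 FPKM in the vehicle libraries, at 14.3% of the vehicle mean, and fell (log2 fold change -1.97 with an SE of 0.39, limma adjusted p = 0.00479). All 3 treated libraries were low, while the vehicle libraries spread from 4.05 to 13.2 FPKM. Without the length trend it was no longer called (-1.10, limma adjusted p = 0.0676). Pex6, one of those ATPases, had 14.0, 18.9 and 18.9 FPKM in the ONX-0914 libraries, against 22.7, 23.9 and 19.5 FPKM in the vehicle libraries. Pex6 was not called as deposited (log2 fold change -0.34 with an SE of 0.23, limma adjusted p = 0.232), with a direction that turned to 0.44 after median-ratio scaling and 0.43 once the length trend was removed.

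Among the genes for the insertion of membrane proteins, Pex19, the cytosolic chaperone that picks up newly made peroxisomal membrane proteins, moved most. It lies on chromosome 1 from 172126755 to 172136493 and had 9.06, 23.8 and 18.8 FPKM in ONX-0914 1, 3 and 4, against 62.0, 68.2 and 59.1 FPKM in vehicle 1, 2 and 4 (log2 fold change -1.91 with an SE of 0.32, limma adjusted p = 0.00295). The highest treated library had less than the lowest vehicle library, and the log2 fold change was -1.12 after median-ratio scaling and -1.19 once the length trend was removed. Pex3, the membrane receptor that PEX19 docks on, fell as deposited, with 9.91, 14.5 and 7.73 FPKM in the ONX-0914 libraries, against 24.0, 21.9 and 20.3 FPKM in the vehicle libraries (log2 fold change -1.01 with an SE of 0.27, limma adjusted p = 0.0143). It did not pass in scaled values (-0.25 after median-ratio scaling and -0.46 once the length trend was removed), nor without ONX-0914 4 or vehicle 1 or 2 in turn (log2 fold changes -1.02 to -0.82, limma adjusted p = 0.0503 to 0.0668). Pex16, which brings PEX3 to the membrane, had 69.2, 48.0 and 79.8 FPKM in the ONX-0914 libraries, against 85.5, 82.3 and 78.1 FPKM in the vehicle libraries. Pex16 was not called (log2 fold change -0.35 with an SE of 0.23, limma adjusted p = 0.229). ONX-0914 3 had the lowest Pex16 level, and the direction turned to 0.46 after median-ratio scaling.

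Of the PEX11 genes Pex11a fell and Pex11g was not called. Pex11a, whose product elongates the membrane before division and which PPARα activators induce in rodents, lies on chromosome 7 from 79735957 to 79743131. It had 6.08, 19.8 and 6.42 FPKM in ONX-0914 1, 3 and 4, against 34.9, 38.0 and 31.5 FPKM in vehicle 1, 2 and 4. Pex11a fell (log2 fold change -1.79 with an SE of 0.39, limma adjusted p = 0.00715). ONX-0914 1 and 4 were alike, ONX-0914 3 lay between them and the vehicle libraries, and the value was -1.03 after median-ratio scaling and -1.21 once the length trend was removed. Pex11g, a related division factor, had 43.8, 39.9 and 61.5 FPKM in the ONX-0914 libraries, against 56.5, 41.6 and 44.5 FPKM in the vehicle libraries. The groups overlapped, and Pex11g was not called (log2 fold change 0.01 with an SE of 0.24, limma adjusted p = 0.966, 95% interval -0.52 to 0.54). With ONX-0914 3 alone against vehicle its value was -0.23. A transcript model of unclear status on the opposite strand, Gm44775, covers 41.1% of the exon bases of Pex11g.

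The transporters had the lowest levels relative to the vehicle mean. Abcd3 encodes PMP70, an abundant membrane protein that brings dicarboxylic and branched acyl-CoAs and bile acid precursors into the peroxisome, and lies on chromosome 3 from 121758774 to 121815302. It had 19.2, 64.7 and 27.4 FPKM in ONX-0914 1, 3 and 4, against 325, 257 and 233 FPKM in vehicle 1, 2 and 4, a mean of 13.6% of the vehicle mean. Every treated library was far below the lowest vehicle library, and the fall (log2 fold change -3.01 with an SE of 0.38, limma adjusted p = 0.0015) was -2.21 after median-ratio scaling and -2.19 once the length trend was removed. Abcd2, a transporter of very-long-chain and polyunsaturated acyl-CoAs, lies on chromosome 15 from 91145871 to 91191799. It had 0.120, 0.210 and 0.0300 FPKM in ONX-0914 1, 3 and 4, against 5.71, 2.47 and 3.49 FPKM in vehicle 1, 2 and 4 (log2 fold change -2.08 with an SE of 0.26, limma adjusted p = 0.00149). All 3 treated values are near 0, so the value of 1 added before the log understates the fall: with 0.1 added in its place the log2 fold change was -4.19. On the FPKM scale the treated mean was 3.09% of the vehicle mean.

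The oxidases make the hydrogen peroxide of the pathway. Acox2, which acts on bile acid intermediates, had 63.7, 77.2 and 57.7 FPKM in the ONX-0914 libraries, against 97.6, 91.3 and 83.5 FPKM in the vehicle libraries. Acox2 was not called (log2 fold change -0.46 with an SE of 0.20, limma adjusted p = 0.0824, 95% interval -0.90 to -0.014). The groups did not overlap, and the gene passed as lower without ONX-0914 3 (log2 fold change -0.57, limma adjusted p = 0.0135), but the direction turned in scaled values (0.35 after median-ratio scaling and 0.27 once the length trend was removed). Acox3, which acts on branched acyl-CoAs, fell at a much lower level, with 0.760, 2.79 and 1.99 FPKM in the ONX-0914 libraries, against 4.84, 6.68 and 5.22 FPKM in the vehicle libraries (log2 fold change -1.27 with an SE of 0.32, limma adjusted p = 0.0123). Acox3 did not pass in scaled values (-0.68 after median-ratio scaling and -0.40 once the length trend was removed), nor without vehicle 2 (log2 fold change -1.15, limma adjusted p = 0.0535). Both bifunctional proteins hydrate and then dehydrogenate the chain. Ehhadh, the L-type enzyme, which PPARα activators induce and which also handles dicarboxylic acids, lies on chromosome 16 from 21761287 to 21787807. It had 17.0, 30.0 and 12.8 FPKM in ONX-0914 1, 3 and 4, against 136, 84.6 and 76.7 FPKM in vehicle 1, 2 and 4. Ehhadh fell (log2 fold change -2.29 with an SE of 0.33, limma adjusted p = 0.00199). Vehicle 1 stood above the other vehicle libraries, all 3 treated libraries were below the lowest of them, and the value was -1.50 after median-ratio scaling and -1.55 once the length trend was removed. Hsd17b4, the D-type enzyme that serves branched and very-long chains, had 181, 167 and 147 FPKM in ONX-0914 1, 3 and 4, against 221, 197 and 205 FPKM in vehicle 1, 2 and 4. Hsd17b4 was not called (log2 fold change -0.33 with an SE of 0.18, limma adjusted p = 0.157, 95% interval -0.74 to 0.077). Its values were close in all 6 libraries without overlap between groups, and its direction turned to 0.48 after median-ratio scaling and 0.36 once the length trend was removed.

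The thiolases cut off acetyl-CoA at the end of each round. Acaa1b, the thiolase that PPARα activators induce in rodents, lies on chromosome 9 from 119148023 to 119157093, and Acaa1a lies on the same chromosome from 119339676 to 119350299. Acaa1b had 117, 172 and 78.5 FPKM in ONX-0914 1, 3 and 4, against 682, 559 and 463 FPKM in vehicle 1, 2 and 4 (log2 fold change -2.26 with an SE of 0.29, limma adjusted p = 0.0015). The highest treated value was 37% of the lowest vehicle value, and the fall was -1.44 after median-ratio scaling and -1.86 once the length trend was removed. Acaa1a had 95.8, 118 and 130.4 FPKM in ONX-0914 1, 3 and 4, against 111, 134 and 115 FPKM in vehicle 1, 2 and 4. The groups overlapped, and Acaa1a was not called (log2 fold change -0.07 with an SE of 0.20, limma adjusted p = 0.776, 95% interval -0.52 to 0.38). Its direction turned to 0.74 after median-ratio scaling and 0.35 once the length trend was removed. The longest transcripts of the pair were 95.7% identical over 1471 aligned bases, with an identical run of 327 bases, so their reads could have been split between them and both levels are uncertain. Scp2, the member with the highest level, encodes sterol carrier protein and, from another start, a thiolase for branched chains, which the gene's value does not separate. It had 490.0, 1203 and 729.7 FPKM in the ONX-0914 libraries, against 1526, 1517 and 1452 FPKM in the vehicle libraries. Scp2 fell as deposited (log2 fold change -0.99 with an SE of 0.30, limma adjusted p = 0.0251). The call was lost in scaled values (-0.17 after median-ratio scaling and -0.30 once the length trend was removed) and without ONX-0914 1 or 4 or vehicle 1, 2 or 4 in turn (log2 fold changes -1.01 to -0.68, limma adjusted p = 0.0656 to 0.0771). Its vehicle values were within a narrow range, and ONX-0914 3 lay nearer to them than to ONX-0914 1.

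Unsaturated chains need helper enzymes. Decr2, the reductase of chains with conjugated double bonds, lies on chromosome 17 from 26081208 to 26090337. It had 32.5, 77.4 and 49.8 FPKM in ONX-0914 1, 3 and 4, against 156, 174 and 155 FPKM in vehicle 1, 2 and 4. Decr2 fell (log2 fold change -1.67 with an SE of 0.29, limma adjusted p = 0.00332). The groups were far apart, and the value was -0.86 after median-ratio scaling and -1.09 once the length trend was removed. Pecr, a reductase of trans-enoyl-CoAs, fell as deposited, with 182, 172 and 213 FPKM in the ONX-0914 libraries, against 285, 298 and 299 FPKM in the vehicle libraries (log2 fold change -0.64 with an SE of 0.18, limma adjusted p = 0.0191), and its direction turned to 0.18 after median-ratio scaling. The call was also lost without the length trend (-0.50, limma adjusted p = 0.0583) and without vehicle 1, 2 or 4 in turn (log2 fold changes -0.66 to -0.62, limma adjusted p = 0.0684 to 0.0771). Eci2, an isomerase that shifts double bonds, had 49.4, 125 and 51.9 FPKM in the ONX-0914 libraries, against 119.7, 143 and 122 FPKM in the vehicle libraries (log2 fold change -0.89 with an SE of 0.34, limma adjusted p = 0.0542) and was not called. ONX-0914 3 had the level of the vehicle libraries and ONX-0914 1 and 4 were well below them. The gene passed as lower without ONX-0914 3 (log2 fold change -1.32, limma adjusted p = 0.00028), beside 60.6% of all genes tested. Its log2 fold change was -0.08 after median-ratio scaling and -0.47 once the length trend was removed, and it passed in neither.

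Shortened chains leave the peroxisome as carnitine esters or free acids. Crot, the carnitine octanoyltransferase, fell as deposited, with 47.5, 126 and 55.3 FPKM in the ONX-0914 libraries, against 165, 149 and 218 FPKM in the vehicle libraries (log2 fold change -1.32 with an SE of 0.35, limma adjusted p = 0.0145). Crot did not pass in scaled values (-0.51 after median-ratio scaling and -0.58 once the length trend was removed), nor without ONX-0914 4 or vehicle 4 in turn (log2 fold changes -1.17 to -1.17, limma adjusted p = 0.0573 to 0.0626). Acot8, a thioesterase, had 10.8, 11.6 and 10.8 FPKM in the ONX-0914 libraries, against 15.4, 13.6 and 12.2 FPKM in the vehicle libraries. Acot8 was not called (log2 fold change -0.28 with an SE of 0.22, limma adjusted p = 0.316), with a direction that turned to 0.48 after median-ratio scaling. Cat encodes catalase, which breaks down hydrogen peroxide, and had 418, 777 and 490.4 FPKM in ONX-0914 1, 3 and 4, against 1394, 1349 and 1206 FPKM in vehicle 1, 2 and 4, a mean of 42.7% of the vehicle mean. It fell (log2 fold change -1.28 with an SE of 0.25, limma adjusted p = 0.0047), did not pass after median-ratio scaling (-0.46, limma adjusted p = 0.163), and passed with the length trend removed (-0.59, limma adjusted p = 0.0473). ONX-0914 3 was again the highest of the treated libraries, and none reached the vehicle range.

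A ratio of 2 genes within a library does not change when the library is rescaled, and 4 pairs of related genes were compared that way, with the gene at the lower percentage of its vehicle mean on top, a choice that fixes the sign. By the deposited values the inducible thiolase was the more abundant of its pair in the vehicle libraries but not in each treated library: the ratio of Acaa1b to Acaa1a was 1.22, 1.45 and 0.602 in libraries ONX-0914 1, 3 and 4, against 6.12, 4.16 and 4.03 in libraries vehicle 1, 2 and 4 (log2 difference -2.20, with an SD of 0.67 in ONX-0914 and of 0.34 in vehicle on the log2 scale, n = 3 each). Reads could have been split between these similar transcripts, so this ratio is uncertain. The ratio of Ehhadh to Hsd17b4 was 0.0940, 0.179 and 0.0873 in libraries ONX-0914 1, 3 and 4, against 0.614, 0.430 and 0.374 in libraries vehicle 1, 2 and 4 (log2 difference -2.02, with an SD of 0.57 in ONX-0914 and of 0.37 in vehicle on the log2 scale, n = 3 each). The ratio of Pex11a to Pex11g was 0.139, 0.496 and 0.104 in libraries ONX-0914 1, 3 and 4, against 0.618, 0.914 and 0.709 in libraries vehicle 1, 2 and 4 (log2 difference -1.93, with an SD of 1.20 in ONX-0914 and of 0.29 in vehicle on the log2 scale, n = 3 each), with ONX-0914 3 close to vehicle 1. That of Acox3 to Acox2 was 0.0119, 0.0362 and 0.0345 in libraries ONX-0914 1, 3 and 4, against 0.0496, 0.0732 and 0.0625 in libraries vehicle 1, 2 and 4 (log2 difference -1.31, with an SD of 0.90 in ONX-0914 and of 0.28 in vehicle on the log2 scale, n = 3 each). In none of the 4 pairs did the groups overlap. In each pair the top gene had been called lower as deposited and the other had not. This separation is therefore no independent result, and no other pairs of members were compared. The two-sided exact permutation p was 0.1 for each pair, and 0.1 after Benjamini-Hochberg adjustment over the 4, the smallest that 3 against 3 libraries allow, so no pair could pass. Without the length trend the log2 differences were -2.23, -1.98, -2.07 and -1.17 in the same order. Between ONX-0914 3 and vehicle the same differences were -1.69, -1.37, -0.57 and -0.75.

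**Figure D3:**
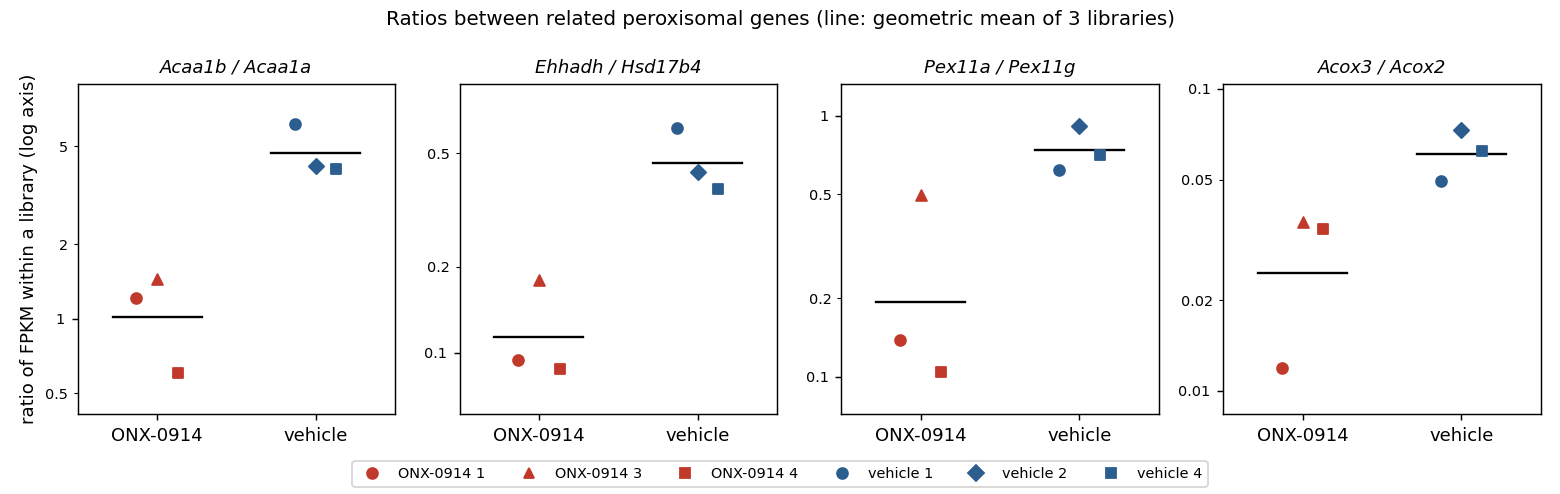
Ratio of FPKM within a library (log axis, each panel with its own range) for 4 pairs of related peroxisomal genes, in 3 ONX-0914 libraries (red) and 3 vehicle libraries (blue), each point 1 library and the line the geometric mean of 3. The red points lie below the blue points in each panel, and ONX-0914 3 (triangle) is the highest red point in all 4.

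The treated libraries differed in degree. The median member was -1.39, -0.69 and -1.15 on the log2 scale from the vehicle mean in ONX-0914 1, 3 and 4, against 0.07, 0.01 and -0.10 in libraries vehicle 1, 2 and 4. ONX-0914 3 had the highest level of the treated libraries in 19 of the 28 members, and in 18 it lay between ONX-0914 1 and 4 on 1 side and all vehicle libraries on the other, beside 39.7% of all genes tested that lay below vehicle in this order. For ONX-0914 3 alone set against vehicle, the spread comes from the 3 vehicle libraries, and the single treated library is taken to vary like them. By that test 15 members fell and 0 rose, beside 27.9% and 2.88% of all genes. Pex10 and Pex16, which were not called over all 6 libraries, were among the 15 (-1.11, limma adjusted p = 0.0197, and -0.76, limma adjusted p = 0.0149). In ONX-0914 3 Abcd2 and Abcd3 were at 5.40% and 23.8% of the vehicle mean and Pex26 at 17.9%. Ehhadh was at 30.3%, Acaa1b at 30.2% and Pex19 at 37.7%, while Scp2 was at 80.3%, Eci2 at 97.8% and Pex13 at 84.1%. In Pex2, Pex10, Pex16, Pex11g and Pecr ONX-0914 3 was instead the lowest of the treated libraries. Without ONX-0914 3, 20 members fell and 1, Pex2, rose, beside 60.6% and 6.89% of all genes.

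**Figure D4:**
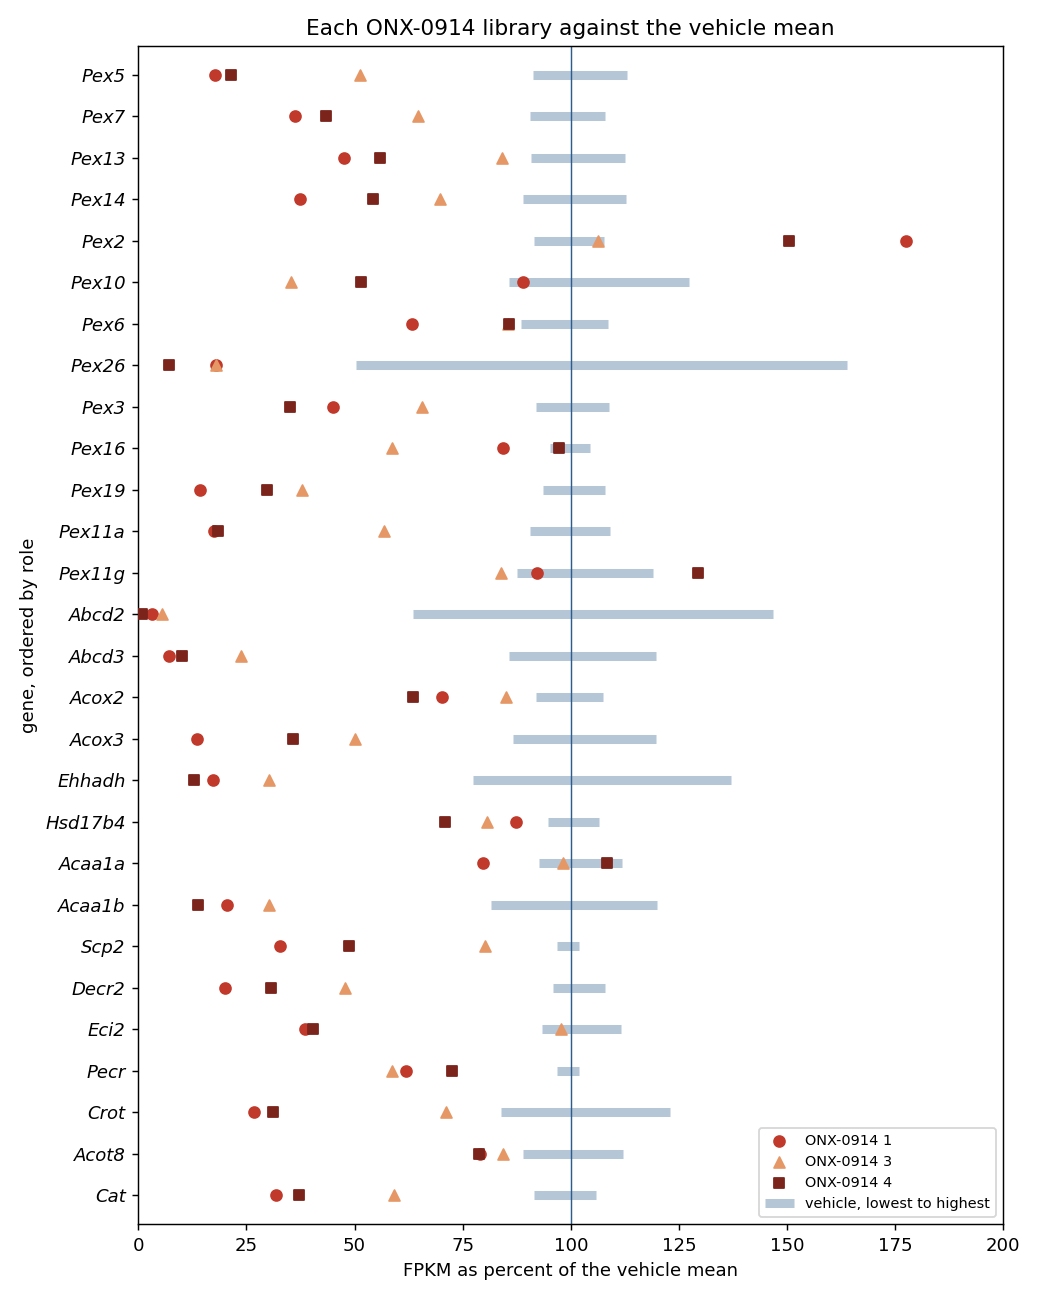
FPKM of each ONX-0914 library as a percentage of the mean of the 3 vehicle libraries, for the 28 genes ordered by role, with the range of the vehicle libraries as a blue bar. ONX-0914 3 (triangle) is the rightmost treated point in 19 genes, and Abcd2, Abcd3 and Pex26 are below 25% of the vehicle mean in all 3 treated libraries.

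Other genes listed as peroxisomal gave a similar picture as deposited. The list was made by symbol, and not all of its products work only in the organelle. Of 63 further peroxisomal genes listed, 62 were in the matrix and 55 were tested, and 34 fell, 1 rose and 20 were not called, and their median log2 fold change was -0.84. That is 61.8% lower and 1.82% higher, beside 43.5% and 2.56% of all genes tested. After median-ratio scaling 13 of them (23.6%) were called lower and 6 (10.9%) higher, with a median of -0.06, beside 13.7% and 14.3% of all genes. Without the length trend 14 (25.5%) were lower and 5 (9.09%) higher, with a median of -0.30, beside 11.6% and 9.61% of all genes. The 3 largest falls among those called were in Acsl1, an acyl-CoA synthetase, Zadh2, a reductase, and Tmem135, a protein of the peroxisomal membrane. Acsl1 had 13.7, 49.2 and 16.6 FPKM in the ONX-0914 libraries, against 219.6, 239 and 242 FPKM in the vehicle libraries. Zadh2 had 2.16, 5.77 and 4.20 FPKM in the ONX-0914 libraries, against 28.6, 24.9 and 23.0 FPKM in the vehicle libraries (log2 fold change -2.46 with an SE of 0.31, limma adjusted p = 0.00149). Tmem135 had 1.86, 6.84 and 3.68 FPKM in the ONX-0914 libraries, against 25.3, 23.0 and 22.9 FPKM in the vehicle libraries (log2 fold change -2.39 with an SE of 0.35, limma adjusted p = 0.00209). These 3 also fell in both scaled settings. The rise was in Agxt, which turns glyoxylate into glycine, with 309, 225 and 300.2 FPKM in ONX-0914 1, 3 and 4, against 117, 156 and 181 FPKM in vehicle 1, 2 and 4 (log2 fold change 0.88 with an SE of 0.23, limma adjusted p = 0.0136). It held in both scaled settings but not in ONX-0914 3 alone against vehicle (0.59, limma adjusted p = 0.109), nor without ONX-0914 4 or vehicle 1. The gene of PPARα itself, Ppara, had 7.07, 14.8 and 10.7 FPKM in the ONX-0914 libraries, against 23.5, 31.6 and 24.5 FPKM in the vehicle libraries (log2 fold change -1.26 with an SE of 0.29, limma adjusted p = 0.00866). It did not pass in scaled values (-0.49 after median-ratio scaling and -0.44 once the length trend was removed, limma adjusted p = 0.162 and 0.182).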

How the data were processed

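Liver RNA was measured in 6 libraries, 3 from mice given ONX-0914 and 3 from mice given vehicle. Per the labels' protocols, RNA was extracted with TRIzol and libraries were made from enriched, fragmented mRNA. For the upstream steps the submitters' processing notes list edgeR, featureCounts 1.6.0, HISAT2 2.0.1, cutadapt 1.11 and FastQC 0.11.5, and the builds GRCm38 and mm10, without roles; annotation, strand setting and scaling are not stated there. Expression was deposited as 1 matrix with 2 decimals, read here as FPKM. No header names the unit. The smallest value above 0 of low genes had a median of 0.11 in the shortest 25% of transcripts and of 0.04 in the longest 25%. Such a step goes with any unit divided by transcript length, so it cannot tell FPKM from another such unit.

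Columns were matched to samples by title. Genes above 1 FPKM in at least 3 libraries (10743) were tested on log2(FPKM + 1) with limma 3.58.1 in R 4.3.3 (variance trend, no block, Benjamini-Hochberg over all genes tested). Fold changes on this scale understate those of low genes. Lengths were taken from each gene's longest coding transcript in GENCODE M21 (10480 tested genes, 97.55%), and the trend over them was smoothed by loess with a span of 0.3. The whole smoothed curve of each library's difference from the vehicle mean was subtracted, its level included. Median-ratio factors used genes above 0 in every library. The fit was tested on simulated data. Promoter windows come from RefSeq on GRCm38.p6. Alternatives were both scalings, a pseudocount of 0.1, no filter, ONX-0914 3 alone, the replicate number as a block and each library left out. The members and lists were chosen with earlier results of these data known. Genes named with results are all members, Ppara and some cell type markers, among them Hnf4a. Of the other peroxisomal genes they are the 3 largest falls among those called and the 1 rise.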

Additional observations from a re-analysis of the deposited data

How the results depend on the processing

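As deposited, 275 genes were higher and 4673 lower, 0 members were higher and 18 lower, and of the other peroxisomal genes 1 was higher and 34 lower. Scaled by median ratio these counts were 1538 and 1471, 1 and 9, and 6 and 13. With the length trend removed they were 1007 and 1218, 1 and 9, and 5 and 14. In ONX-0914 3 alone against vehicle 2992 genes were lower, and of the other peroxisomal genes 0 were higher. With 1 library left out, between 92 and 740 genes were higher and between 2590 and 6514 lower, between 0 and 1 members higher and between 12 and 20 lower, and between 0 and 5 of the other peroxisomal genes higher and between 21 and 42 lower; the highest counts were without ONX-0914 3, and the lowest over all genes without vehicle 1. The members lower were fewest without vehicle 2 (42.9%, beside 26.4% of all genes tested). The titles share only the replicate numbers 1 and 4, and nothing says that these pair the animals. Deviations from the group means correlated at 0.0011 for number 1 and at 0.13 for number 4. Between unlike numbers they correlated at 0.10 (1 with 4) and -0.12 (4 with 1). Numbers 2 and 3 each occur in only 1 library, so with the replicate number as a block vehicle 2 and ONX-0914 3 drop out of the comparison. It then sets only ONX-0914 1 and 4 against vehicle 1 and 4. In that setting 604 genes were higher (5.62%) and 5973 lower (55.6%). Of the members 1 was higher (3.57%) and 20 were lower (71.4%), and of the other peroxisomal genes 4 were higher. The pseudocount of 0.1 gave 17 members lower (60.7%), beside 40.3% of all genes tested. No filter gave 16 members lower (57.1%), beside 29.1% of the 16087 genes then tested.

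Direction turned in 20 of the members' values, in 10 genes. Scaled by median ratio, Pex13 was at 0.10, Pex10 at 0.0023, Pex6 at 0.44, Pex16 at 0.46, Acox2 at 0.35, Hsd17b4 at 0.48, Acaa1a at 0.74, Pecr at 0.18 and Acot8 at 0.48. With the length trend removed, Pex13 was at 0.19, Pex6 at 0.43, Acox2 at 0.27, Hsd17b4 at 0.36 and Acaa1a at 0.35. Pex11g was at -0.23 in ONX-0914 3 alone and between -0.17 and 0.14 with 1 library left out, and Acaa1a between -0.17 and 0.0502. None of these values passed the test, and the cause was not tested. The ratios of the 4 related pairs, each of a member called lower over a member not called, kept their direction in each setting run. Depth is unknown, so values near 0, such as those of Abcd2 and Pex26, carry an error that cannot be given.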
